A study of Mus musculus with 62 samples.

Results

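The microglia genes examined here are 34 genes known to be expressed by microglia, the resident macrophages of the brain, taken as a fixed list of symbols from a table of 47643 gene symbols. They were described in 3 groups: 13 homeostatic members, which are receptors, surface proteins and regulators that mark resting microglia; 16 pan-myeloid members, which other macrophages and white blood cells also express; and 5 activation members. Of the 34 genes, 33 had a row under their own symbol, and 28 had a mean of at least 1 TPM (a relative abundance that corrects for gene length and sums to the same total in every library) and entered the tests among 14399 symbols. All 13 homeostatic members passed this filter, as did 12 of the pan-myeloid and 3 of the activation members. The members that were not tested were Ptprc, Apbb1ip, Irf8 and Itgam among the pan-myeloid genes and Cst7 and Itgax among the activation genes.

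Microglia survive on signals through the receptor Csf1r and survey the tissue with motile processes, which they steer toward injured cells through receptors for nucleotides such as P2ry12. A pair of transcription factors shapes their gene expression: Spi1, known as PU.1, is needed in all macrophages and related white blood cells, whereas Sall1 marks microglia among brain macrophages. When microglia respond to injury or disease they often lower the homeostatic surface genes and raise phagocytic and lysosomal genes, such as those near Trem2.

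Cerebellum RNA came from female mice labelled 2 months old that had received melanoma cells that cause wasting (CAC), melanoma cells that do not (NCAC) or a mock injection, with tissue collected at 2, 4, 6 or 8 weeks (wk). Each of the 12 groups had 5 libraries, except CAC at 8 wk with 7, for 62 libraries in all. Groups were taken from each sample's description, because the treatment field names cachectic melanoma cells for every sample and the protocol speaks of LLC cells, a lung carcinoma line. The sample fields name the strain C57BL6/J and the series design names nude mice (NCI Ath/nude), a strain that lacks mature T cells, so the strain is not certain. Libraries are described as biological replicates but none is tied to a named animal, so p-values measure the spread between these libraries. The authors deposited TPM values, which keep no sequencing depth, and the number of reads behind a value is unknown.

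The tissue label was checked first. Purkinje and granule cell genes were abundant, and the 10 cerebellar neuron and glia genes summed to between 6198 and 7682 TPM in the 8 wk libraries. The members' own levels were read next: none of the 13 homeostatic members was at 0 in any library, with Csf1r (mean 23.1 TPM), Mertk (16.5 TPM), P2ry12 (13.7 TPM) and Cx3cr1 (12.97 TPM) the highest and Fcrls (1.00 TPM) and P2ry6 (1.11 TPM) the lowest. Ctss, the lysosomal protease cathepsin S, was the most abundant member at 64.9 TPM. Mertk is also made by astrocytes, and in whole tissue its level is not that of microglia alone. In bulk tissue fewer microglia and less RNA per microglial cell cannot be told apart.

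P2ry13 and P2ry12, receptors for ADP, are neighbours on chromosome 3. P2ry13 lies at chr3:59207892-59210882 and P2ry12 at chr3:59216272-59262871, both on the minus strand, with 5389 bases between them (GENCODE M21, GRCm38). Both lie inside Med12l, a subunit gene of the Mediator complex on the opposite strand, and the sources used here do not say whether reads were assigned by strand. Med12l was not called at 8 wk: its mean was 27.6 ± 1.27 TPM (SD, n = 7) across CAC libraries, against 26.5 ± 1.79 TPM (SD, n = 5) for mock, and the log2 difference was 0.06 (SE 0.05, limma adjusted p = 0.391). In all, 7 of the 34 members overlap another protein-coding gene, 4 of them only on the opposite strand. These are Csf1r, Gpr34, P2ry12 and P2ry13, while Cx3cr1, Irf8 and Itgam also overlap a gene on the same strand.

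The upstream sequences of 4 members are shown because these were the genes called between CAC and mock at 8 wk both with all libraries and without the mock libraries that stood apart (below). Each is the 250 bases before a start site in RefSeq (GRCm38.p6), written 5′ to 3′ on the gene's strand. Capitals mark a strict form of the PU.1 motif, searched only as GAGGAAG and its reverse complement CTTCCTC.
P2ry13, minus strand, chr3:59210883-59211132: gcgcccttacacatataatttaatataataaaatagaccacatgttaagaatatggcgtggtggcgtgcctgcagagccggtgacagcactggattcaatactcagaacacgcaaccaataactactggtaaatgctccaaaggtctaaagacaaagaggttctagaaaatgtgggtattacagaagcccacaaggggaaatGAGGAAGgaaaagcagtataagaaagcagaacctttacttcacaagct
P2ry12, minus strand, chr3:59262986-59263235: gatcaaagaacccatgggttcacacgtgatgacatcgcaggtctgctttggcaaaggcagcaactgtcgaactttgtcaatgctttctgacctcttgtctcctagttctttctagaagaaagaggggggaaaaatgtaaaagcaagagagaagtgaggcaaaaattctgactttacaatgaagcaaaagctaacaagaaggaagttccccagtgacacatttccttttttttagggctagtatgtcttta
Sall1, minus strand, chr8:89044163-89044412, the outermost of its start sites: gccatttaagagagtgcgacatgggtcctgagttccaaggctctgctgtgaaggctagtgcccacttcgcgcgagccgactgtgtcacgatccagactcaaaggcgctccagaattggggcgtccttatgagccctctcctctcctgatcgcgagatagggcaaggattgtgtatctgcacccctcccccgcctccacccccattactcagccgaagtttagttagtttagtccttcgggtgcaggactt
Mertk, plus strand, chr2:128698665-128698914: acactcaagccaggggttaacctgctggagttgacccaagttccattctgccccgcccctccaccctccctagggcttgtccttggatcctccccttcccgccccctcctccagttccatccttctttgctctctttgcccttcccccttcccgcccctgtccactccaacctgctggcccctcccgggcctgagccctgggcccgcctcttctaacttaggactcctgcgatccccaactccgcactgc
The motif occurred in the P2ry13 window, with its first base 48 bases before the start, and in none of the other 3 windows shown. RefSeq upstream sequences were matched for 26 of the 34 members, and 8 of these held the motif (30.8%), against 3244 of 27025 genes (12%). The 8 were P2ry13 and Fcrls among 8 homeostatic members matched, Inpp5d, Fcgr3, Laptm5, Cd33 and Itgam among 13 pan-myeloid members, and Trem2 among 5 activation members. Neighbouring receptors thus differed in this exact string: P2ry13 held it and P2ry12 did not. Looser forms of the motif were not searched, so a window without the string may still hold them. A match describes these letters and is not evidence of binding.

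Before the comparisons, the libraries that stood apart are given, because the members were involved. In mock at 8 wk, replicate 5 had the highest value among the 17 libraries of that week for 25 of the 33 members with a row: 14 of 15 pan-myeloid members, 5 of 5 activation members and 6 of 13 homeostatic members. The other 7 homeostatic members, P2ry12, P2ry13, Sall1, Gpr34, Siglech, Fcrls and Mertk, peaked in other libraries. The same library held 426 TPM of the immunoglobulin gene Igkc, against 1.55 to 10.6 TPM in the other 4 mock libraries, and its 7 MHC class II genes summed to 347 TPM, against a mock median of 35.0 TPM. The T cell genes Cd3e and Cd3g were listed at 0 in 52 and 49 of the 62 libraries. Both had their highest values, 1.35 and 2.33 TPM, in this same mock replicate 5. The part of such cells in the values of the members was not tested, and results are given with and without this library. Mock replicate 3 was the next highest of that week for the pan-myeloid mean (3.15 on the log2(TPM + 1) scale, against 3.59 in replicate 5 and 2.55 to 2.85 in the other 3 mock libraries). At 6 wk, CAC replicate 2 stood apart as well, with the highest value of all 62 libraries for Cx3cr1, Csf1r, Tmem119, Selplg, Inpp5d and Ctss.

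**Figure D1:**
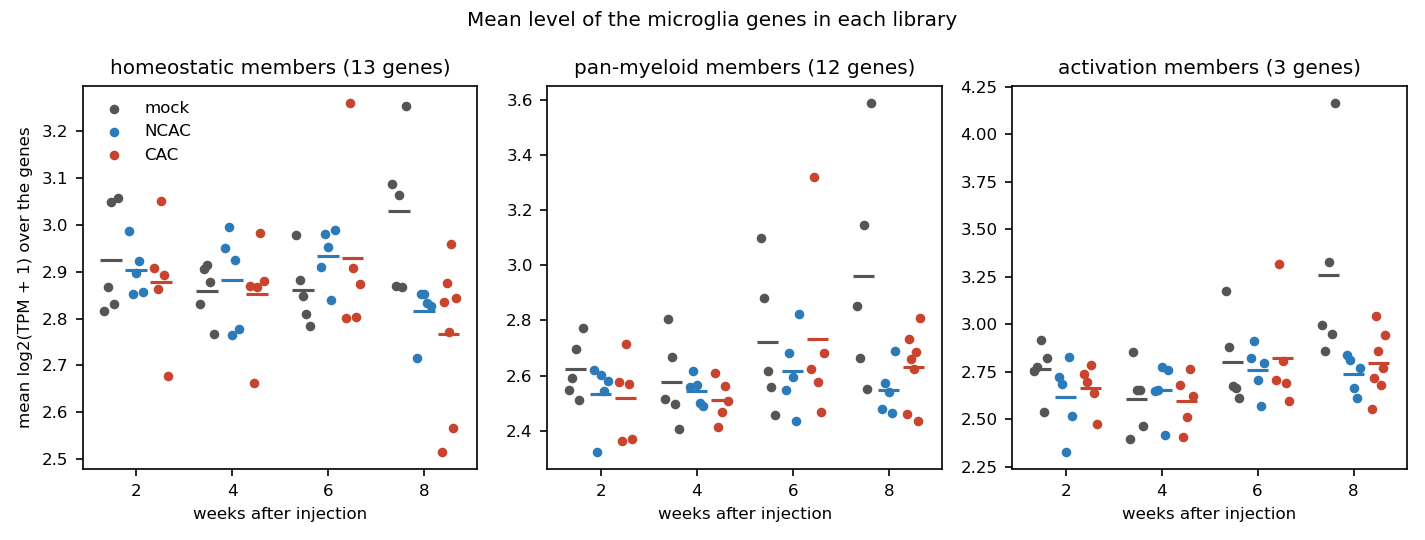
Mean log2(TPM + 1) of the 13 homeostatic, 12 pan-myeloid and 3 activation members that were tested, 1 point per library, with the group mean as a bar, by weeks after injection. At 8 wk the homeostatic means of CAC ran from 2.52 to 2.96 and those of mock from 2.87 to 3.25, and the pan-myeloid and activation panels each show mock replicate 5 above all other libraries, at 3.59 and 4.16.

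At 2, 4 and 6 wk the members gave no call between CAC and mock. Of the 28 tested members, limma called 0 in each of these weeks, and 1, 0 and 0 were at an unadjusted p under 0.05. Of all 14399 genes 0%, 0.00694% and 1.72% were called in the 3 weeks (at 6 wk 0.313% lower and 1.41% higher). The median log2 difference of the members was -0.03, -0.07 and 0.04. P2ry12, for example, averaged 13.8 ± 2.48 TPM (SD, n = 5) in CAC and 12.9 ± 1.29 TPM in mock at 6 wk, a log2 difference of 0.09 with a 95% interval of -0.14 to 0.31.

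At 8 wk 12 of the 28 tested members were lower in CAC than in mock and 1 was higher (limma, Benjamini-Hochberg adjusted p under 0.05). Of all tested genes 20.8% were called in either direction, 7.34% were called lower and 13.4% higher. The 12 lower genes were 7 homeostatic members (P2ry12, P2ry13, Gpr34, Cx3cr1, Fcrls, Olfml3 and Sall1), 3 pan-myeloid members (Aif1, Spi1 and Ly86) and 2 activation members (Cd68 and Lyz2), and the higher gene was Mertk. The median log2 difference was -0.33 for the homeostatic, -0.35 for the pan-myeloid and -0.44 for the activation members, against 0.02 over all tested genes. Without mock replicate 5 the calls went from 13 to 5 (P2ry12, P2ry13, Sall1, Aif1 and Mertk), and without mock replicates 3 and 5 together to 4 (the same without Aif1). The pan-myeloid median then went to -0.06 and the activation median to -0.19, while the homeostatic median was -0.26. These mock libraries were picked by their high member values, most of all pan-myeloid ones, so medians nearer 0 follow in part from that choice. The contrast between the sub-groups was not tested. Fewer libraries can also lower the power for every gene, and the share of all genes called in these fits is not given here.

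The nucleotide receptors were among the clearest differences. P2ry13 ran from 2.12 to 4.42 TPM with a median of 2.93 in the 7 CAC libraries, and stood at 5.24, 5.10, 5.17, 4.27 and 5.29 TPM in mock replicates 1 to 5. Only CAC replicate 3, at 4.42 TPM, was above the lowest mock library. P2ry13 differed on the log2 scale by -0.60 (SE 0.13, limma adjusted p = 0.000626). P2ry12, through which microglial processes sense ADP, ran from 7.70 to 13.9 TPM with a median of 10.9 in CAC, against 17.9, 15.0, 13.5, 13.9 and 15.4 TPM in mock. CAC replicates 2 and 3 overlapped the mock range, and the other 5 CAC libraries were below it. Its log2 difference was -0.39 (SE 0.11, adjusted p = 0.00527). P2ry6, the third of these receptors, which responds to UDP, was low in all groups (for CAC 1.11 ± 0.210 TPM, SD, n = 7; for mock 1.39 ± 0.585 TPM, SD, n = 5), with a log2 difference of -0.16 and an interval of -0.41 to 0.09.

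Sall1, the transcription factor that marks microglia, was the one member whose CAC libraries were all below every mock library at 8 wk. It ran from 2.88 to 5.76 TPM with a median of 4.45 in CAC, and stood at 7.43, 6.45, 7.90, 6.03 and 6.60 TPM in mock. Such a complete separation below mock was found in 1.25% of the 14399 tested genes. Sall1 differed on the log2 scale by -0.56 (SE 0.11, limma adjusted p = 0.000194), the smallest p among the members, and Sall1 was called under each of the 11 alternative settings and each of the 12 fits without 1 library. Sall1 lies at chr8:89027235-89044162. Spi1, which encodes PU.1, overlapped between groups: 0.695 to 1.59 TPM with a median of 1.17 in CAC, against 1.37, 0.873, 1.76, 1.43 and 3.59 TPM in mock. Its log2 difference of -0.35 (SE 0.13, adjusted p = 0.0466) went to -0.15 (adjusted p = 0.388) without mock replicate 5.

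**Figure D2:**
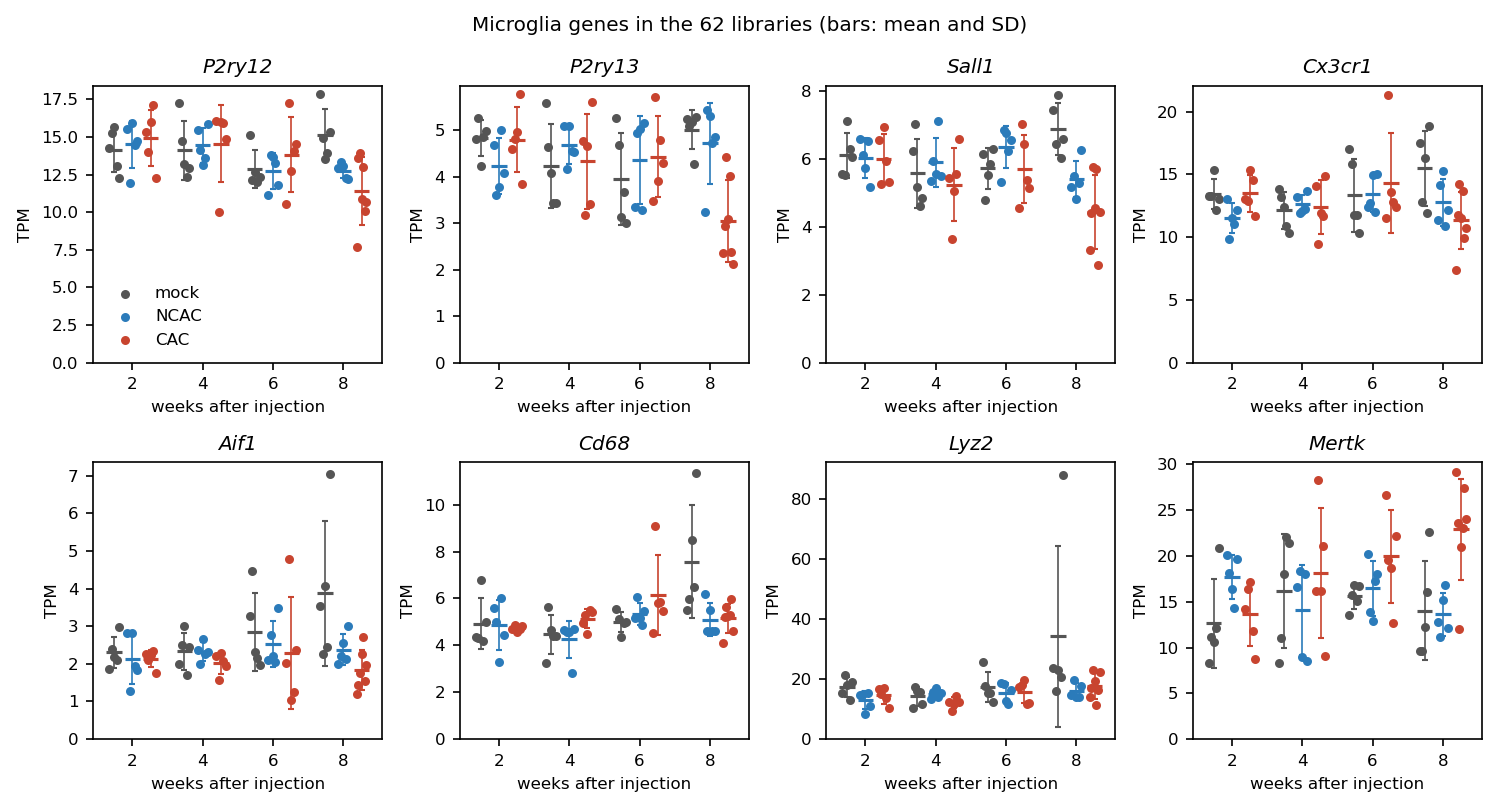
TPM of 8 members in the 62 libraries by weeks after injection, 1 point per library, with the group mean and SD as bars. P2ry12, P2ry13 and Sall1 show low CAC libraries at 8 wk, whereas in Aif1, Cd68 and Lyz2 mock replicate 5 (7.04, 11.4 and 88.0 TPM) is the highest point of the panel, and 6 of the 7 CAC libraries at 8 wk are above 4 of the 5 mock libraries for Mertk.

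The other homeostatic surface genes that were called moved less or overlapped more. Cx3cr1, the receptor for the neuronal chemokine fractalkine, ran from 7.42 to 14.2 TPM with a median of 11.5 in CAC and was at 17.5, 12.8, 16.3, 11.96 and 18.9 TPM in mock. Its 3 highest mock libraries were above every CAC library, and the log2 difference was -0.42 (SE 0.12, limma adjusted p = 0.0111). Gpr34, a receptor for lysophosphatidylserine, ran from 2.98 to 5.16 TPM with a median of 3.73 in CAC and was at 6.00, 4.68, 5.51, 4.42 and 5.56 TPM in mock. The groups overlapped in the range of mock replicates 2 and 4, and the log2 difference was -0.36 (SE 0.12, adjusted p = 0.0244). Without mock replicate 5 neither gene passed the threshold (Cx3cr1 adjusted p = 0.0521, Gpr34 adjusted p = 0.0532).

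Olfml3, a secreted glycoprotein enriched in microglia, ran from 1.66 to 3.12 TPM with a median of 2.45 in CAC. In mock it stood at 3.09, 3.22, 3.24, 3.06 and 4.12 TPM, so that only CAC replicate 3 reached the mock range. The log2 difference was -0.33 (SE 0.09, limma adjusted p = 0.00971), and -0.27 (adjusted p = 0.0508) without mock replicate 5. Fcrls, an Fc receptor-like scavenger protein, was the lowest of the homeostatic genes, at 0.107 to 0.831 TPM with a median of 0.736 in CAC and 1.54, 0.806, 0.823, 1.06 and 0.948 TPM in mock. The 3 highest mock libraries were above every CAC library, and the other 2 were within the CAC range. The log2 difference of -0.32 (SE 0.12, adjusted p = 0.0416) understates the change of a gene this low, because 1 is added to each TPM value.

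Mertk, a receptor tyrosine kinase that binds Gas6 and protein S on dying cells and helps engulf them, was the member that went the other way. It ran from 11.98 to 29.1 TPM with a median of 23.6 in CAC, against 9.63, 9.68, 12.3, 16.1 and 22.6 TPM in mock. All CAC libraries but replicate 3 were at 21.0 TPM or more, and mock replicate 5 was within the range of those 6. The log2 difference was 0.69 (SE 0.23, limma adjusted p = 0.0251), and 0.87 (adjusted p = 0.00694) without mock replicate 5. The call was lost without CAC replicate 1 or 6 or without mock replicate 1, 2 or 3. The ligands of microglial receptors, 9 genes that include Gas6, Pros1, Csf1, Il34 and Cx3cl1, gave 0 calls by limma in this comparison, with 2 at an unadjusted p under 0.05. Of these ligands Gas6 was higher in CAC than in NCAC at 8 wk (0.17, adjusted p = 0.0331), and Gas6 (0.08, adjusted p = 0.0455) and Csf1 (0.09, adjusted p = 0.033) were higher in CAC than in mock averaged over the weeks.

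The remaining 5 homeostatic members were not called. Tmem119, a membrane protein that marks microglia among brain macrophages, had a log2 difference of -0.34 (adjusted p = 0.0585), and Csf1r one of -0.27 (adjusted p = 0.0646). Siglech, a sialic acid-binding lectin, and Selplg, the ligand of P-selectin, were at -0.13 (interval -0.35 to 0.09) and -0.23 (interval -0.46 to -0.00).

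Among pan-myeloid members Aif1, which encodes the microglial stain antigen IBA1, had the largest fall. It ran from 1.196 to 2.71 TPM with a median of 1.75 in CAC and stood at 3.55, 2.27, 4.06, 2.45 and 7.04 TPM in mock. CAC replicate 5 was above the 2 lowest mock libraries, and the other CAC libraries were below all mock libraries. The log2 difference was -0.72 (SE 0.17, limma adjusted p = 0.00218). It was -0.52 (adjusted p = 0.0259) without mock replicate 5 and -0.41 (adjusted p = 0.147) without replicates 3 and 5. Ly86, a secreted partner of a Toll-like receptor homologue, had a log2 difference of -0.58 (SE 0.22, adjusted p = 0.0474), which was -0.39 (adjusted p = 0.217) without replicate 5.

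The other 9 tested pan-myeloid members did not pass the threshold. The values of Cd33, a sialic acid-binding lectin, Cd53, Laptm5 and Ctss were -0.23 (adjusted p = 0.0505), -0.26 (adjusted p = 0.125), -0.30 (adjusted p = 0.078) and -0.35 (adjusted p = 0.187). Tyrobp and Fcer1g, the membrane adaptors through which Trem2 and Fc receptors signal, had log2 differences of -0.37 (adjusted p = 0.0524) and -0.42 (adjusted p = 0.075). Itgb2, the beta chain of the complement receptor that pairs with Itgam, was at -0.37 (adjusted p = 0.0543). Fcgr3, an Fc receptor for IgG, was the one pan-myeloid member with a value above 0 (0.10, interval -0.16 to 0.35, and -0.03 without mock replicate 4), and Inpp5d, the phosphatase SHIP1, which damps signals from such receptors, was at -0.11 (interval -0.30 to 0.07).

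The 2 called activation members both lost the call without mock replicate 5, a library singled out in part by its high activation values. Of the 12 fits without 1 library, 9 called Lyz2 and 11 called Cd68. Lyz2, lysozyme of myeloid cells, ran from 11.5 to 23.0 TPM with a median of 16.96 in CAC and was at 23.6, 16.1, 23.0, 20.6 and 88.0 TPM in mock. Apart from mock replicate 5, the mock libraries were within or just above the CAC range, and 2 CAC libraries were below every mock library. The log2 difference of -0.65 (SE 0.22, limma adjusted p = 0.0263) became -0.24 (adjusted p = 0.344) without that library. Cd68, a glycoprotein of lysosomes, ran from 4.08 to 5.96 TPM with a median of 5.27 in CAC and was at 5.51, 5.99, 8.51, 6.48 and 11.4 TPM in mock. All mock libraries but replicate 1 were above every CAC library, and the log2 difference of -0.44 (SE 0.13, adjusted p = 0.00801) became -0.30 (adjusted p = 0.0773) without mock replicate 5. Trem2, a lipid receptor of activated microglia, was not called (-0.29, adjusted p = 0.0983). Lyz2 has a close paralogue, Lyz1, and how reads shared by both were assigned is not stated.

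The 5 members with a row that fell under the filter also peaked in mock replicate 5. Cst7, the protease inhibitor cystatin F, was listed at 0 in 34 of 62 libraries and peaked at 1.59 TPM in mock replicate 5 of 8 wk, with 0.649 TPM in replicate 3 and 0 in the other 3 mock libraries. Itgax, the integrin CD11c, was at 1.59 and 0.685 TPM in these libraries and between 0.0381 and 0.104 TPM in CAC. Ptprc, the leukocyte antigen CD45, peaked at 1.77 TPM in mock replicate 5, Irf8, a transcription factor of macrophages, at 2.10 TPM and Apbb1ip, an adaptor for integrin signals, at 1.43 TPM. With no filter, limma put CAC against mock at 8 wk at -0.43 for Itgax (adjusted p = 0.00858) and -0.27 for Apbb1ip (adjusted p = 0.014). Irf8 was at -0.33 (adjusted p = 0.0339), Ptprc at -0.27 (adjusted p = 0.0455) and Cst7 at -0.34 (adjusted p = 0.0739). These genes were not fitted without mock replicate 5. The share of all genes called with no filter is not given here. Itgam had no row under its own symbol. A row named Itgam_1, which was looked up after the values were seen, averaged 4.21 TPM and had a log2 difference of -0.44 (adjusted p = 0.00846) at 8 wk. A second row, Itgam_2, averaged 0.0154 TPM.

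**Figure D3:**
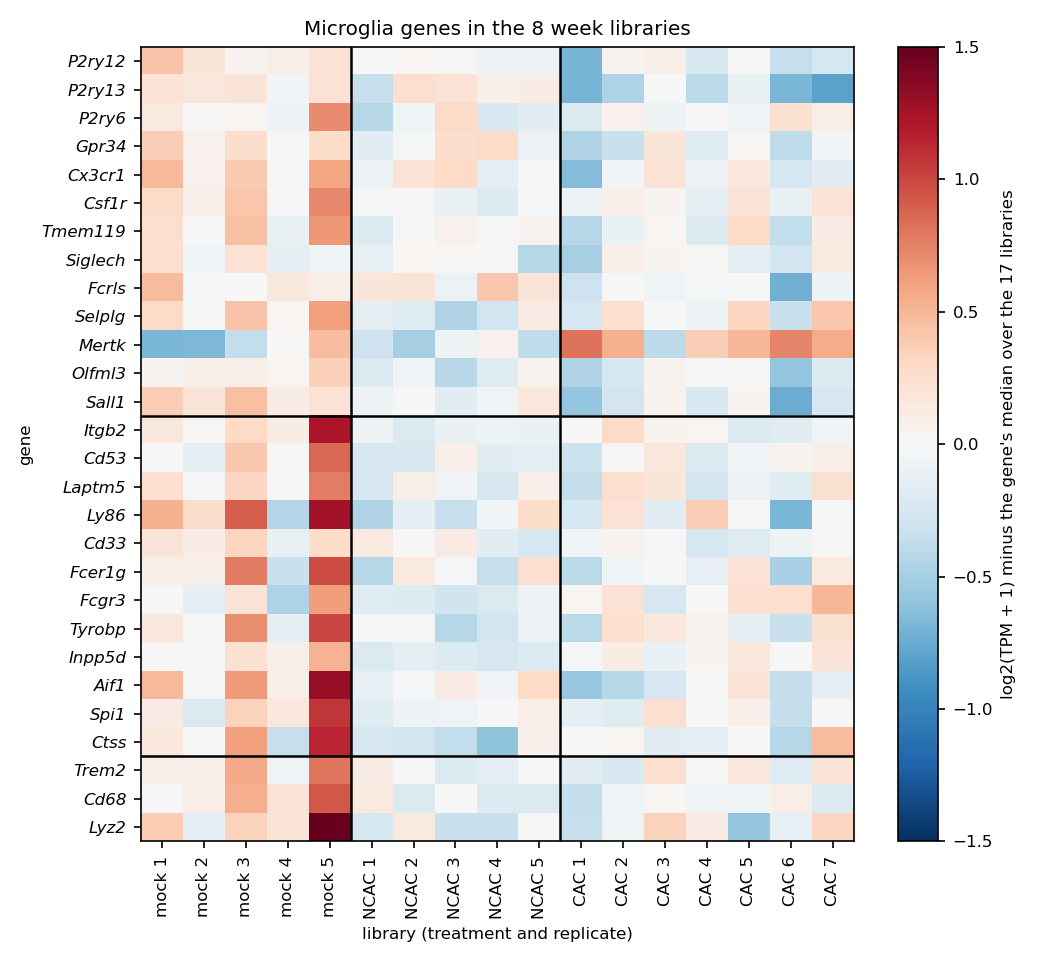
The 28 tested members in the 17 libraries of 8 wk, coloured by log2(TPM + 1) minus the gene's median over these libraries, with colours capped at 1.5, and lines between homeostatic, pan-myeloid and activation members and between treatments. Mock replicate 5 is high across the pan-myeloid and activation rows, and CAC replicates 1 and 6 are low in P2ry12, P2ry13 and Sall1 while high in Mertk.

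Within CAC at 8 wk the libraries were not alike. Replicates 1 and 6 each had the lowest value of the 17 libraries for 9 of the 33 members: P2ry12, Gpr34, Cx3cr1, Tmem119, Siglech, Cd53, Laptm5, Aif1 and Cd68 in replicate 1, and Fcrls, Olfml3, Sall1, Ptprc, Ly86, Fcer1g, Apbb1ip, Irf8 and Spi1 in replicate 6. The same libraries had the highest levels of Mertk, 29.1 and 27.4 TPM. Replicate 3 lay at the other end, with the highest P2ry12 (13.9 TPM), P2ry13 (4.42 TPM) and Sall1 (5.76 TPM) of CAC and the lowest Mertk (11.98 TPM). Without replicate 1 limma called 7 members and without replicate 6 it called 8, none of them Mertk. The share of all genes called in these fits is not given here. P2ry12, P2ry13, Sall1 and Aif1 were called in all 12 fits that left out 1 library of either group.

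**Figure D4:**
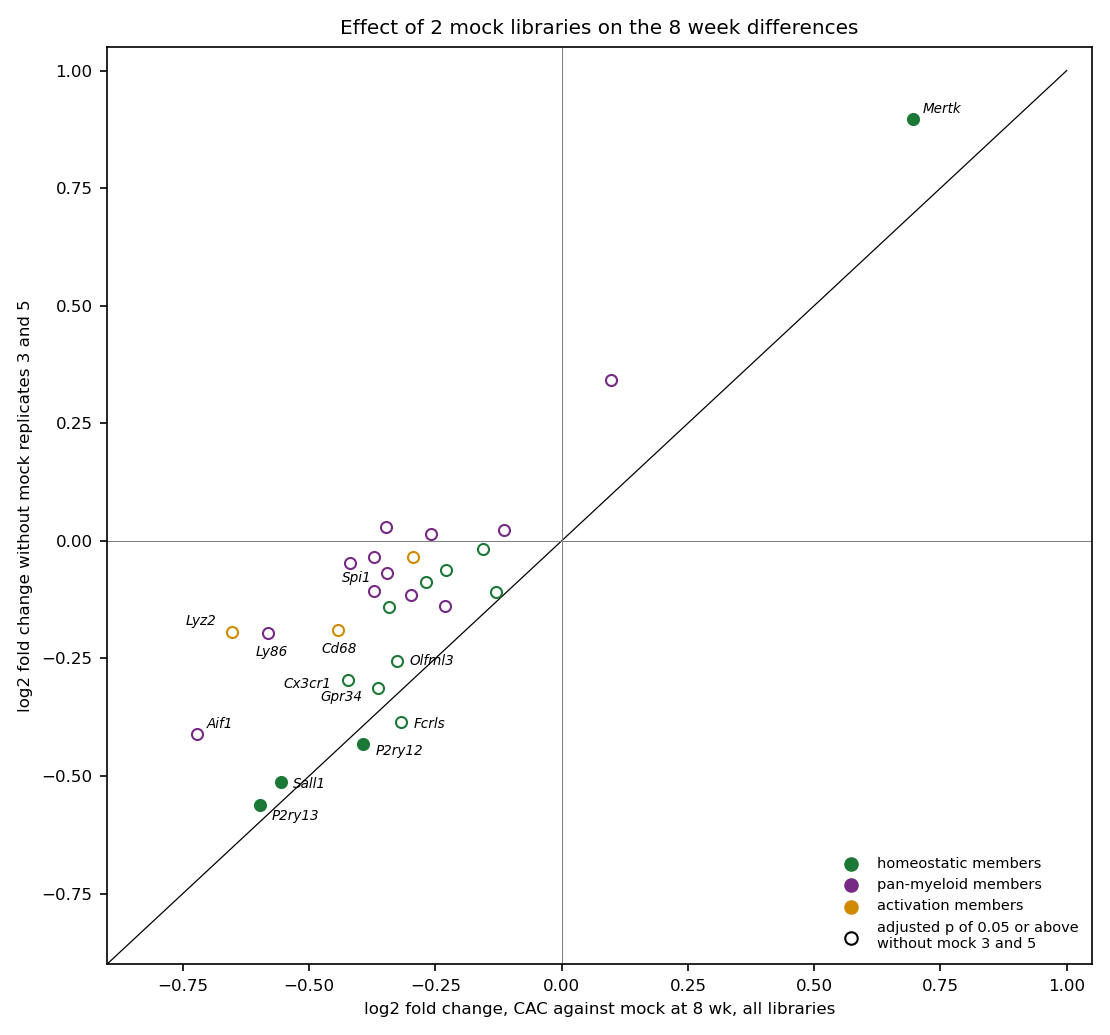
Log2 difference of each tested member between CAC and mock at 8 wk with all libraries (horizontal axis) and without mock replicates 3 and 5 (vertical axis), with the line of equal values. P2ry12, P2ry13, Sall1 and Mertk (filled) were called in both, while Aif1, Lyz2, Ly86 and Cd68 lie above the line, with differences nearer 0 on the vertical axis. Mock replicates 3 and 5 were set aside for their high member values.

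NCAC was compared with the same mock libraries, so its values share their spread. At 2, 4 and 6 wk limma called 0 members (2, 1 and 1 at an unadjusted p under 0.05), and 0.0139%, 0% and 0% of all genes, the former all higher. At 8 wk limma called 0 of the 28 members, and 0% of all genes, between NCAC and mock, while 18 members had an unadjusted p under 0.05: 5 homeostatic, 10 pan-myeloid and all 3 activation members. Of all genes 7.21% were under that unadjusted threshold. The medians were -0.25, -0.39 and -0.46. Without mock replicates 3 and 5 together 2 members were under 0.05 unadjusted and the medians were -0.12, -0.15 and -0.20. The NCAC libraries lay wholly below mock for P2ry12, Csf1r, Itgb2 and Inpp5d (0.59% of all genes did so). Inpp5d, for example, was at 1.53, 1.65, 1.56, 1.46 and 1.55 TPM in NCAC and from 1.94 to 3.21 TPM in mock, a log2 difference of -0.37 (SE 0.10, limma adjusted p = 0.464).

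**Figure D5:**
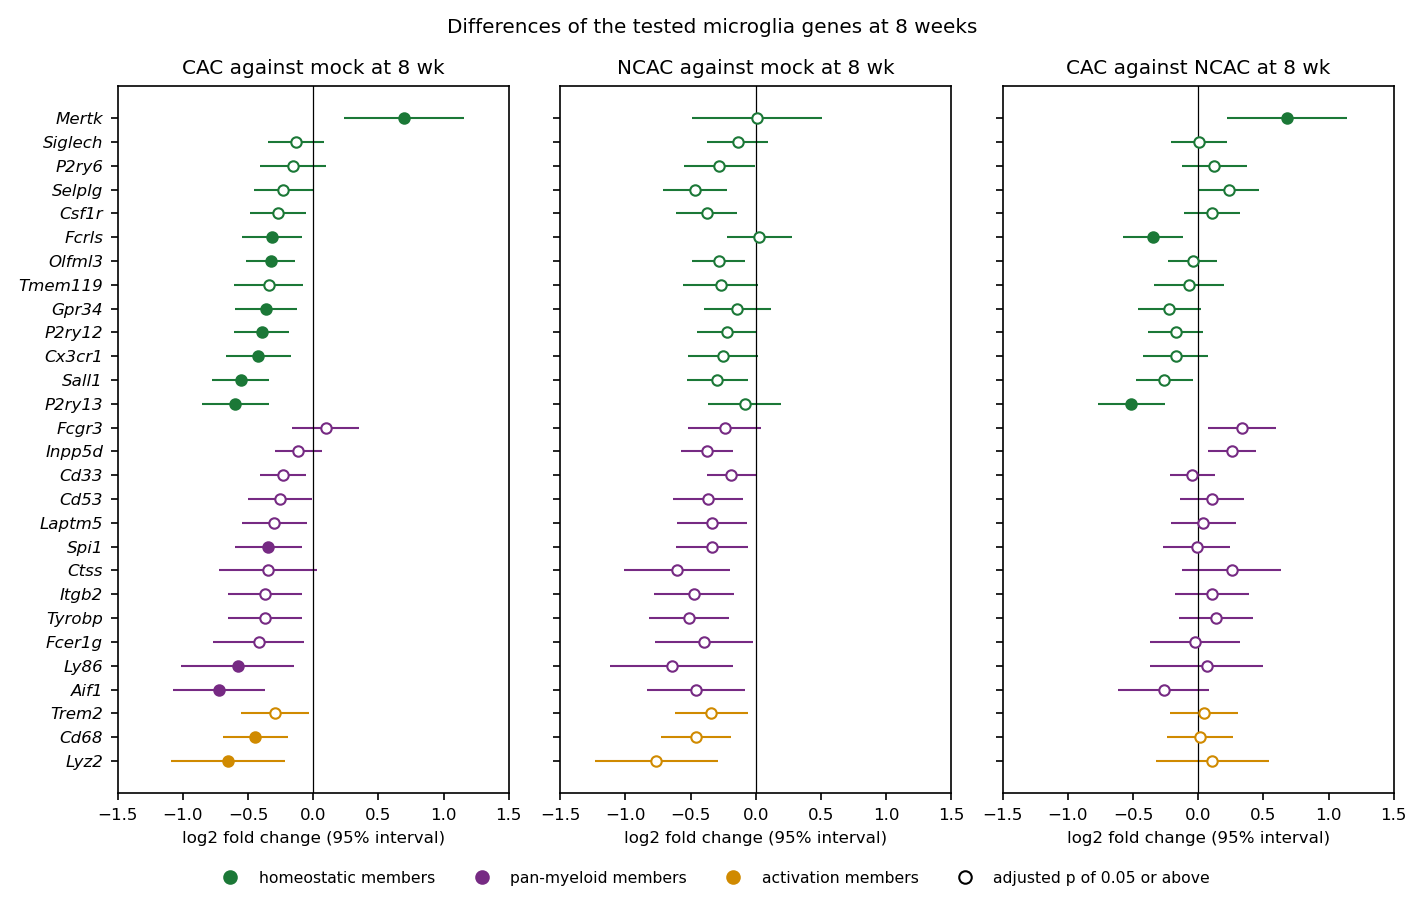
Log2 differences of the 28 tested members at 8 wk with 95% intervals from limma, for CAC against mock, NCAC against mock and CAC against NCAC, coloured by group and filled where the adjusted p was under 0.05. In the third panel P2ry13 (-0.51), Fcrls (-0.35) and Mertk (0.68) are filled, and the 3 activation members lie near 0, with Cd68 at 0.01 and on the other side of 0 under 3 other scalings.

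CAC and NCAC were compared directly at 8 wk, which leaves the mock libraries out of the difference itself. P2ry13 and Fcrls were lower in CAC, Mertk was higher, and the other 25 tested members were not called, against 11.8% of all genes called in either direction, 4.01% called lower and 7.76% called higher. P2ry13 stood at 3.25, 5.43, 5.32, 4.74 and 4.86 TPM in NCAC against a CAC range of 2.12 to 4.42. NCAC replicate 1 was within the CAC range and the other 4 were above it. On the log2 scale P2ry13 differed by -0.51 (SE 0.13, limma adjusted p = 0.00539), and P2ry13 was called in all 12 fits that left out 1 library. The P2ry13 call was lost with the replicate block (adjusted p = 0.0786) and with the compared groups alone. Fcrls stood at 1.07, 1.08, 0.720, 1.40 and 1.08 TPM in NCAC, where 4 of 5 libraries were above the highest CAC library (0.831 TPM). Its log2 difference was -0.35 (SE 0.12, adjusted p = 0.0389). Mertk stood at 12.8, 11.1, 15.2, 16.8 and 12.2 TPM in NCAC, and 6 of the 7 CAC libraries were above all of these. Its log2 difference was 0.68 (SE 0.23, adjusted p = 0.0422). Of the 12 fits that left out 1 library, 6 called Fcrls and 3 called Mertk.

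The other 25 tested members had values on both sides of 0 in this comparison. Sall1 was at -0.26 (interval -0.48 to -0.04, limma adjusted p = 0.109) and P2ry12 at -0.17 (interval -0.38 to 0.04). Aif1 was at -0.26 (interval -0.62 to 0.09), Cd68 at 0.01 (interval -0.24 to 0.26, with the sign reversed under other scalings) and Lyz2 at 0.11 (interval -0.33 to 0.55). The 7 CAC values of Inpp5d, from 1.73 to 2.36 TPM, were all above the 5 NCAC values, a separation found above NCAC in 1.94% of all genes, but the log2 difference of 0.26 had an adjusted p of 0.0515. Fcgr3 had 0.34 (adjusted p = 0.0771). The median was -0.07 over the homeostatic, 0.09 over the pan-myeloid and 0.05 over the activation members, and 0.02 over all tested genes.

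Fcrls was also lower in CAC than in NCAC at 6 wk, the 1 member called in that comparison, where 9.45% of all genes were (1.99% lower and 7.47% higher). It stood at 0.454, 0.557, 1.10, 0.871 and 0.408 TPM in CAC and at 1.51, 1.30, 1.18, 1.43 and 0.852 TPM in NCAC. NCAC replicate 5 lay within the CAC range and the other 4 NCAC libraries were above it. The log2 difference was -0.43 (SE 0.12, limma adjusted p = 0.023), while against mock of 6 wk CAC was at -0.10 and NCAC at 0.33. Leaving out CAC replicate 1, CAC replicate 5, NCAC replicate 1 or NCAC replicate 2 removed the call. At 2 and 4 wk limma called 0 members between CAC and NCAC (1 and 0 at an unadjusted p under 0.05), with 0% and 0.00694% of all genes called.

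Averaged over the 4 weeks, 5 members were lower in CAC than in mock and 1 was higher, where 23% of all genes were called (6.69% lower and 16.3% higher). Olfml3 had the smallest p, at -0.21 (SE 0.05, limma adjusted p = 0.00211). Fcrls was at -0.21 (SE 0.06, adjusted p = 0.00982), Aif1 at -0.30 (adjusted p = 0.0141), Sall1 at -0.17 (adjusted p = 0.0284), Ly86 at -0.31 (adjusted p = 0.0415) and Mertk at 0.32 (adjusted p = 0.0484). Without mock replicates 3 and 5 of 8 wk, Olfml3, Fcrls and Mertk were called. Mertk was called in 11 and Ly86 in 21 of the 42 fits that left out 1 library, and Olfml3, Fcrls and Aif1 in all 42. At 2 wk Olfml3 was at 1.82 to 2.54 TPM in CAC and at 2.40 to 3.39 TPM in mock. These ranges overlapped, and Olfml3 was not called in that week. For NCAC against mock averaged over the weeks limma called 0 members and 0% of all genes, with 9 members at an unadjusted p under 0.05, 8 of them pan-myeloid, and 3.98% of all genes.

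Whether the gap between CAC and mock widened from 2 to 8 wk was tested as well, and limma called 0 of 28 members, with 6 at an unadjusted p under 0.05. Of all genes 16.5% were under 0.05 unadjusted, and 1.55% were called, 0.59% lower and 0.958% higher. The members nearest the threshold were Sall1, with a change of -0.54 (SE 0.16, adjusted p = 0.0622), P2ry13 with -0.58 (SE 0.19, adjusted p = 0.0903) and P2ry12 with -0.47 (SE 0.16, adjusted p = 0.0987). A fall that begins between 2 and 8 wk was therefore not shown by this test at the threshold used. Without CAC replicate 3 of 8 wk these 3 genes were called.

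Mock itself was compared between 8 and 2 wk, because the 8 wk mock group carried the library that stood apart. Limma called 0 members and 0% of all genes, but 13 of 28 members had an unadjusted p under 0.05, 8 pan-myeloid and 3 activation members among them. The share of all genes under 0.05 unadjusted was 8.41%. Of the 28, 26 had a value above 0. Cd68 went from 4.92 ± 1.08 TPM (SD, n = 5) at 2 wk to 7.57 ± 2.41 TPM at 8 wk, a log2 difference of 0.51 (adjusted p = 0.266). Without mock replicate 5 of 8 wk 1 member was under 0.05 unadjusted. P2ry12 (0.09, interval -0.14 to 0.32) and P2ry13 (0.04, interval -0.24 to 0.32) showed no such difference beyond their error.

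The level of the homeostatic genes relative to the others was followed within libraries. This cancels a common change of all members only in part, because adding 1 to each TPM value damps the change of low genes. The homeostatic mean also holds Mertk, which went the other way in CAC at 8 wk. The homeostatic mean minus the pan-myeloid mean, both on the log2(TPM + 1) scale, had medians of 0.33, 0.37, 0.19 and 0.13 in CAC at 2, 4, 6 and 8 wk. In mock the medians were 0.28, 0.32, 0.23 and 0.21, and in NCAC 0.37, 0.38, 0.36 and 0.28. At 8 wk the CAC range of 0.03 to 0.27 overlapped the NCAC range of 0.14 to 0.37 and lay within the mock range of -0.33 to 0.32, whose lowest value was that of replicate 5. These differences are given without a test.

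A separate list of 26 other microglia-enriched genes was read beside the members. Between CAC and mock at 8 wk 3 of 23 tested genes were lower and 1 was higher, where 20.8% of all genes were called. Lpcat2, an enzyme of platelet-activating factor synthesis, had -0.48 (limma adjusted p = 0.00178), Hpgds, a prostaglandin D synthase, -0.42 (adjusted p = 0.00198), and Unc93b1, which carries Toll-like receptors to endosomes, -0.35 (adjusted p = 0.0294). The higher gene was Crybb1, a crystallin expressed by microglia, at 0.54 (adjusted p = 0.0309). Unc93b1 was not called without mock replicate 5 (-0.23, adjusted p = 0.167), and without mock replicates 3 and 5 Lpcat2 alone was called, with Hpgds at -0.34 (adjusted p = 0.0524) and Crybb1 at 0.60 (adjusted p = 0.0684). Against NCAC 1 gene was lower (Lpcat2, -0.36) and 5 were higher: Crybb1 (1.00, adjusted p = 0.00026), Entpd1, an enzyme that degrades extracellular ATP (0.27, adjusted p = 0.00314), Rnase4 (0.40, adjusted p = 0.0067), and the complement genes C1qc (0.53, adjusted p = 0.0246) and C1qb (0.51, adjusted p = 0.0289). C1qa, the third chain of that complement protein, was at 0.36 (adjusted p = 0.142). Lpcat2 was called against mock in each of the 12 fits that left out 1 library. At 6 wk Entpd1 (0.31, limma adjusted p = 0.0127) and Slco2b1 (0.34, adjusted p = 0.0411) were higher in CAC than in mock, where 1.72% of all genes were called. Both were also higher than in NCAC at 6 wk (0.28, adjusted p = 0.011, and 0.33, adjusted p = 0.0192), where 9.45% were.

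Of 24 further genes of activated microglia 15 were tested, and 3 were lower and 3 higher in CAC than in mock at 8 wk, where 20.8% of all genes were called. Ch25h, cholesterol 25-hydroxylase, which vessel cells can also express, rose from 0.485 ± 0.313 TPM (SD, n = 5) in mock to 4.72 ± 1.53 TPM (SD, n = 7) in CAC, with no overlap (0.209 to 0.956 against 2.67 to 6.78 TPM). Its log2 difference was 1.92 (limma adjusted p = 8.83e-09), and at 6 wk it was 1.38 (adjusted p = 0.000309). Cd14 (0.43, adjusted p = 0.0395) and Apoe (0.17, adjusted p = 0.0125) also rose, and Apoe is made mainly by astrocytes in the brain. Cd52 (-0.72), Cd63 (-0.22) and Ctsb (-0.07) fell, and without mock replicates 3 and 5 Cd52 was at -0.15 (adjusted p = 0.748) and Ctsb at -0.04 (adjusted p = 0.373). Against NCAC at 8 wk Ch25h (1.68, limma adjusted p = 1.94e-07), Cd14 (0.78, adjusted p = 0.000502) and Apoe (0.18, adjusted p = 0.011) were higher. Cd63 was lower (-0.26, adjusted p = 0.00621), and 11.8% of all genes were called.

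Markers of other macrophages were read in the same libraries. Of 11 genes of perivascular and border macrophages 7 were tested, and 3 were higher in CAC than in mock at 8 wk: Lyve1 (0.60, limma adjusted p = 0.0119), Pf4 (0.72, adjusted p = 0.0141) and F13a1 (0.44, adjusted p = 0.0429). Of all genes 20.8% were called in that comparison. Without mock replicate 5, 2 of the 7 were called (Pf4 and F13a1), and without mock replicates 3 and 5 none was by limma, with 4 at an unadjusted p under 0.05 and a list median of 0.40 in place of 0.20. Against NCAC at 8 wk 3 of the 7 were higher, where 11.8% of all genes were called. These were Pf4 (0.98, limma adjusted p = 0.00181), Cbr2 (0.45, adjusted p = 0.0328) and Ms4a6c (0.56, adjusted p = 0.033). The list summed to 14.9 to 22.1 TPM in CAC, 10.6 to 13.3 TPM in NCAC and 11.2 to 20.4 TPM in mock. Of 4 tested monocyte genes Ly6c2 (0.54) and Fn1 (0.39) were higher in CAC than in mock and Itga4 (-0.20) lower, and without mock replicates 3 and 5 Itga4 was not called (adjusted p = 0.0717). Against NCAC Ly6c2 (0.82, limma adjusted p = 2.66e-05) and Fn1 (0.44, adjusted p = 0.0201) were higher. Some of these genes are also made by vessel or fibroblast cells, and none of the pan-myeloid members separates these cells from microglia. The part of border macrophages and monocytes in the members' values was not tested. In CAC the cerebellar glial genes Mbp (-0.25) and Aqp4 (-0.57) were also lower, so that falls of this size were not limited to the microglia list. Of the further marker lists in this comparison, 2 of 2 tested lymphocyte and plasma cell genes (Igkc and Ighm) and 3 of 5 MHC class II genes (H2-Eb1, Cd74 and H2-Aa) were lower, as was 1 of 7 meningeal fibroblast genes (Lum, -0.61). Without mock replicate 5 limma called 0 genes of the lymphocyte and of the MHC class II lists (1 of each at an unadjusted p under 0.05), and their medians went from -1.64 to -0.64 and from -1.07 to -0.43. None of 5 red blood cell, 7 choroid plexus or 2 neutrophil genes passed the adjusted threshold in limma (before adjustment 0, 1 and 2 were under 0.05), and none of 5 proliferation genes passed the filter.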

How the data were processed

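RNA from cerebellum was sequenced from a stranded mRNA library kit, per the labels' protocols. The authors deposited 1 table of TPM values for 47643 gene symbols in 62 libraries, and the genome build was mm10 per the submitters' processing notes. Aligner, quantifier, annotation and the use of strand in counting: not given in the sources used here. Every library's column was mapped to a sample by its title, 0 columns were left unused, and no columns were identical. TPM keeps no read depth, so no counting interval was given.

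Values were taken as log2(TPM + 1), so that differences of low genes are understated. The 14399 symbols with a mean of at least 1 TPM were fitted together in limma 3.58.1 (R 4.3.3) over all 12 groups, with 50 residual degrees of freedom, and p-values were adjusted by Benjamini-Hochberg within each of 17 comparisons at a threshold of 0.05. The fit was first tested on simulated data. CAC and NCAC were compared with the same mock libraries. The members, the 13 other gene lists and the choice of tests were made with earlier results of these data known. Full values were given for members called in a comparison, at most the 12 with the smallest p, and other members by range, count or difference; of the other lists at most 5 called genes each were named by p, with defining markers, except that C1qb and C1qa were added after their values were seen. Alternatives were another pseudocount, 2 other filters, median-of-ratios and quantile scaling, removal of mitochondrially encoded genes, a replicate block, a choroid plexus covariate, sample weights, the compared groups alone, and fits without 1 library or without mock replicates 3 and 5 of 8 wk. Gene coordinates came from GENCODE M21 (GRCm38) and upstream sequences from RefSeq (GRCm38.p6).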

Additional observations from a re-analysis of the deposited data

Results flagged for a closer look

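In each group of 5 to 7 libraries the most extreme library was compared with its nearest neighbour by Dixon's ratio, for 75 groups of sub-group means and member levels, and 7 passed the 95% critical value; chance gives about 1 in 20. The homeostatic mean (log2(TPM + 1)) of CAC replicate 2 at 6 wk was 3.26, with the nearest library at 2.91, and its pan-myeloid mean was 3.32, with the nearest at 2.68. The homeostatic mean of NCAC replicate 1 at 8 wk was low at 2.72, with the nearest at 2.83, and the pan-myeloid mean of NCAC replicate 2 at 2 wk was low at 2.32, with the nearest at 2.54. In mock at 8 wk, P2ry13 was low in replicate 4 (4.27 TPM, nearest 5.10), Olfml3 was high in replicate 5 (4.12 TPM, nearest 3.24) and Lyz2 was high in replicate 5 (88.0 TPM, nearest 23.6).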

How the results depend on the processing

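Of the 23 member results past the threshold, all 23 kept their direction in every alternative that tested them and every fit without 1 library. In all of these, 4 stayed past it: P2ry13 and Sall1 for CAC against mock at 8 wk, and Fcrls and Olfml3 averaged over the weeks. Of these genes Sall1 alone was tested with the minimum mean of 5 TPM. Counts of called members moved as follows, and the share of all genes called in these fits is not given here. Such counts can also move with the power of a fit for every gene. Under the minimum mean of 5 TPM, P2ry13, Gpr34, Fcrls, Olfml3, Spi1 and Aif1 were not tested. Counts under that filter therefore also fall because members leave the test. For CAC against mock at 8 wk (13) there were 8 with a minimum mean of 5 TPM, 3 with the groups alone, 4 without mock replicates 3 and 5, and 5 to 20 without 1 library. For CAC against NCAC at 8 wk (3) there was 1 with no filter, with the minimum of 5 TPM and with the groups alone, 6 with sample weights, and 1 to 6 without 1 library. At 6 wk (1) there were 0 with the minimum of 5 TPM and with the groups alone, and 0 to 1 without 1 library. For CAC against mock averaged over the weeks (6) there were 3 with the groups alone and without mock replicates 3 and 5, and 3 to 9 without 1 library. For the change from 2 to 8 wk (0) there was 1 with quantile scaling, 3 with sample weights, and 0 to 3 without 1 library. For mock at 8 against 2 wk (0) there was 1 with sample weights. Without mock replicates 3 and 5 the medians that moved were -0.06 for pan-myeloid and -0.19 for activation members in CAC against mock, and -0.12, -0.15 and -0.20 for the 3 sub-groups in NCAC against mock. The choice of these libraries by their member values favours such moves. With the replicate block the counts were 6 for CAC against mock at 8 wk, 0 for CAC against NCAC at 8 wk and 3 averaged over the weeks. Replicate numbers did not pair the libraries: 16 of 60 same-number correlations were over 0.1 (median 0.03). Members that were not called changed sign in places. For CAC against NCAC at 8 wk, Cd68 was -0.00559, -0.0263 and -0.0144 and Siglech -0.00966, -0.0319 and -0.0185 with median-of-ratios scaling, quantile scaling and mitochondrial genes removed. Under the replicate block Fcer1g was 0.00544, Olfml3 0.0324 and Spi1 0.0400, and Fcer1g was 0.0257 with sample weights. Without 1 library the ranges were -0.0174 to 0.0738 for Cd68, -0.109 to 0.0618 for Fcer1g, -0.0104 to 0.0926 for Laptm5, -0.0132 to 0.171 for Ly86, -0.106 to 0.0199 for Olfml3, -0.0731 to 0.0771 for Siglech and -0.0621 to 0.0403 for Spi1. For CAC against mock at 8 wk without mock replicates 3 and 5, Cd53 was 0.0144, Ctss 0.0291 and Inpp5d 0.0228, and Fcgr3 ran from -0.0295 to 0.243 without 1 library. For NCAC against mock at 8 wk without these replicates, Fcgr3 was 0.00513 and Fcrls -0.0376, and Mertk was -0.0165 with sample weights. Without 1 library Fcrls ran from -0.0267 to 0.112, Mertk from -0.0947 to 0.193 and P2ry13 from -0.131 to 0.0187. The cause was not tested.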
